A study of Drosophila melanogaster with 3 samples.

Results

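The genes of the cytosolic ribosomal proteins were examined in a chromatin immunoprecipitation (ChIP-seq) study of the transcription factor Cycle in Drosophila melanogaster. The members were the protein-coding genes whose symbol begins with RpL, RpS or RpLP followed by a digit, with the mRp genes of the mitochondrial ribosome left out. Of 13945 protein-coding genes on 6 chromosome arms, 92 met this rule, 54 of the large and 38 of the small subunit. The large subunit count includes 3 stalk genes and RpLP0-like. The symbol rule takes in 5 genes named "-like", and it leaves out sta and Rack1, whose products also sit on the small subunit.

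All 3 samples were biological replicates of 1 group, so there was no comparison between genotypes, treatments or times. Each came from whole white prepupae, males and females together, of the transgenic line cyc-GFP, in which Cycle carries GFP at its C terminus. The precipitation used an antibody to GFP. In whole animals, binding in few cells at a high level and binding in many cells at a low level cannot be told apart. How strongly the fusion protein was expressed, and from which promoter, is not stated in the labels.

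A cytosolic ribosome is built from 1 copy of most of these proteins together with ribosomal RNA. Their genes are among the most strongly transcribed in growing animals, and loss of 1 copy of many of them gives the Minute phenotype of short bristles and delayed development. Promoters of these genes in Drosophila are known for the TCT motif, a pyrimidine-rich start site used in place of the usual initiator. Cycle is the bHLH-PAS partner of Clock in the circadian oscillator, and the pair binds the E-box CACGTG.

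The deposited files hold peaks with a summit and a signal against a control, not read counts, so the depth of each library is unknown. The authors' list of reproducible peaks, thresholded over the 3 replicates by irreproducible discovery rate, has 7227 peaks and is called the thresholded list, and the list from the pooled replicates has 29484. A gene counted as called if any of its transcript starts had a summit of the thresholded list less than or equal to 1 kb away. The signal of a member in a replicate is given relative to the median of that replicate's peaks that overlap the thresholded list, so a relative signal of 1 is a typical thresholded peak. No overlapping peak was present for 8.12% of the thresholded peaks in replicate 1, for 0.969% in replicate 2 and for 1.20% in replicate 3, and missing values are named beside the results they touch.

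Of the 92 members, 74 were called, or 80.4%, where 28.6% of all protein-coding genes were called. The strongest peaks of the 74 were 74 distinct peaks, though 50 were shared with another gene. The large subunit had 45 of 54 genes called (83.3%) and the small subunit 29 of 38 (76.3%). With the 5 "-like" genes left out, 73 of 87 were called. Called members lay on all 6 arms, with 14 of 14 on X, 13 of 14 on 3L, 14 of 19 on 2L, 17 of 23 on 3R, 15 of 21 on 2R and the only member on chromosome 4, RpS3A. These counts have no share of all genes on the same arm beside them, so no difference between arms is read from them.

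The count held near the start itself. With summits within 500 bp of a start, 72 members were called against 24.8% of all genes. When each summit was given only to the gene with the nearest start, 68 members (73.9%) were called against 21.2% of all genes. Among the 3613 strongest thresholded peaks, 51 members (55.4%) had a summit against 16.8% of all genes. The pooled list, which is not thresholded, gave 87 members (94.6%) against 55.4%.

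The replicates were read separately, each with its strongest 7227 peaks. Replicate 1 had a summit at 56 members (60.9%), replicate 2 at 77 (83.7%) and replicate 3 at 74 (80.4%). The share over all genes was 23.3%, 30.3% and 29.8% in the same order. Members were therefore above the share of all genes in all 3 replicates, and replicate 1 was the lowest for both.

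**Figure D1:**
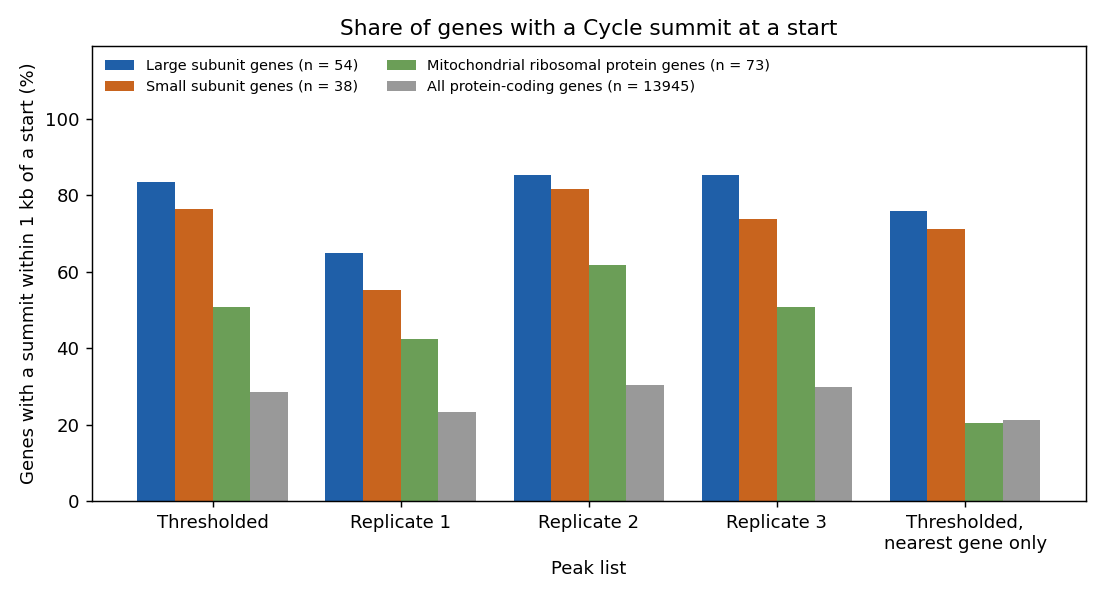
Share of genes (%, vertical axis) with a summit within 1 kb of a start, for 5 ways of reading the peak lists. Bars stand for large subunit genes, small subunit genes, mitochondrial ribosomal protein genes and all protein-coding genes, and the replicate bars use the 7227 strongest peaks of each. Both subunits stand above the other bars in all 5, and replicate 1 gives the lowest replicate bars.

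Whether the 2 subunits differ could not be settled by a test over 3 replicates, which cannot reach a p of 0.05. The share called in the large subunit was higher by 9.55 percentage points in replicate 1, by 3.61 in replicate 2 and by 11.5 in replicate 3, a mean of 8.22 ± 4.11 (SD, n = 3). The exact sign-flip test gave a two-sided p of 0.25, the smallest that 3 replicates allow. In the pooled list the order turned, with 50 of 54 large and 37 of 38 small subunit genes. Signal leaned the other way. The log2 ratio of the large to the small subunit's median relative signal was -0.13, -0.12 and -0.03 in replicates 1 to 3, a mean of -0.09 ± 0.05 (SD, n = 3, exact two-sided p = 0.25). The replicates did not keep the same sign under other settings. Without the "-like" genes the ratios were -0.10, -0.12 and 0.03, and with the nearest gene only -0.33, -0.12 and 0.08.

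Signals at the called members ranged 11.7-fold, from a mean of 5.70 at RpS27 to 0.486 at RpS28a, with a median of 1.49. Of the 7227 thresholded peaks, the 500 strongest included those of 6 members and the 1000 strongest those of 14. The median rank was 2048. Most called members lay outside the 1000 strongest peaks. Among the 3613 strongest were 51 of the 74 called members, and 2339 of all 3984 called genes. In the 59 members with a peak in all 3 replicates, the median coefficient of variation between replicates was 25.4%.

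RpS27, a zinc-finger protein of the small subunit, had relative signals of 5.76, 5.79 and 5.55 in replicates 1 to 3 and stood at rank 139. Its gene lies at 3R:25245955-25247514 on dm6, and its summit was 23 bp upstream of a start, in a promoter shared with Nup37, which encodes a nuclear pore protein. The mean of 5.70 ± 0.131 (SD, n = 3) gave a coefficient of variation of 2.29%, and Nup37 cannot be told apart from RpS27 as the bound gene.

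RpL32, widely used as a reference gene in fly RNA work under the name rp49, had signals of 5.69, 5.42 and 3.82 and rank 232. Its summit was 124 bp upstream of a start. RpS19b, the second copy of the small subunit gene RpS19a, had 5.42, 5.02 and 3.25, but its summit was 890 bp upstream and closer to a start of CG5854. That peak therefore says least about the member itself. RpL7 (2L:10201004-10202321) had 3.93, 5.09 and 4.37 at rank 269, with a summit 38 bp downstream of a start, the furthest downstream of all called members. RpL34b (3R:9400237-9401226) had 4.24, 3.98 and 3.83 at rank 382, with a summit 80 bp upstream. The peaks of RpL32, RpL7 and RpL34b were shared with CG7943, Ripalpha and CG8132, in that order, though the member's start was the nearest. RpL23A, which lies at the exit of the peptide tunnel, shared its peak with no other gene (3L:1666288-1668654). Its signals were 3.24, 3.97 and 3.62, a mean of 3.61 ± 0.365 (SD, n = 3). These 6 were the members within the 500 strongest peaks, and no replicate value of any of them was under 3.

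The start regions of 4 of these genes are shown. They are followed by RpL34a as the weaker copy of RpL34b and by RpS10a, which had no summit within 1 kb in any replicate list. The summit lay 23 bp upstream of a start in RpS27, 80 bp in RpL34b and 87 bp in RpL23A. In RpL7 it lay 38 bp downstream, past the end of the printed stretch. Each runs 5′ to 3′ on the gene's strand from 120 bases before to 30 bases from the start used by most transcripts, read from the RefSeq Release 6 genome (dm6). The regions are chr3R:25247485-25247634 (minus strand) for RpS27, chr2L:10200884-10201033 (plus) for RpL7, chr3R:9401197-9401346 (minus) for RpL34b, chr3L:1668625-1668774 (minus) for RpL23A, chr3R:26059238-26059387 (minus) for RpL34a and chr3R:27652640-27652789 (plus) for RpS10a. Capitals mark matches to the motifs searched. In RpL7 these are GTGTGACC, the reverse complement of GGTCACAC, and an E-box CACGTG run into GTGCAC. In RpL34b and RpL23A they are the TCT motif, in RpL34a TATCGATA and in RpS10a the reverse complement of TATAAA. RpS27 held none of them in this stretch.
RpS27: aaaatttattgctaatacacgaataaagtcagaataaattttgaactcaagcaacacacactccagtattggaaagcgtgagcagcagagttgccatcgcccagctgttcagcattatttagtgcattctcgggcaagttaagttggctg
RpL7: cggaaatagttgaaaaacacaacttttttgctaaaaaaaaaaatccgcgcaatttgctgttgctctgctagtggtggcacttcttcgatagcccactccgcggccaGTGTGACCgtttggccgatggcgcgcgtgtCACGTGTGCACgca
RpL34b: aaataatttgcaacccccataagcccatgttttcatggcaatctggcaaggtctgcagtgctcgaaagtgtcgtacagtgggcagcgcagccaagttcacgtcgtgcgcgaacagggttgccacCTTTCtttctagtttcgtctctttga
RpL23A: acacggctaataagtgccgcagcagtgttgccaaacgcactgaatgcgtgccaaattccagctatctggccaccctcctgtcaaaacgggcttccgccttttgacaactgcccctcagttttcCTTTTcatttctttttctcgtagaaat
RpL34a: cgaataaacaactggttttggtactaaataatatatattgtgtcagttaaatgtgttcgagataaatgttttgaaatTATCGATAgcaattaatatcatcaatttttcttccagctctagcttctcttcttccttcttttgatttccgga
RpS10a: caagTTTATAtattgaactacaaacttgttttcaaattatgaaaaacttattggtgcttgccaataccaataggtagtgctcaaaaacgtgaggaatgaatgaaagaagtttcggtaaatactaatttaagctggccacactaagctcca

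Next in order came RpL28, with signals of 2.13, 3.48 and 2.95 in a promoter shared with the initiation factor gene eIF1, and RpS16 and RpS28b, neither of which had an overlapping peak in replicate 1. RpS16 had 2.60 and 2.73 in replicates 2 and 3, and RpS28b had 3.01 and 2.29. RpL41, one of the smallest proteins known, had 2.12, 3.05 and 2.65. RpL14 had 1.81, 3.39 and 2.54. In all but RpS16 of these, replicate 2 was the highest. Members with a mean of 2 or more numbered 22, 11 of each subunit, and further ones were RpLP0, RpL24, RpL13A, RpS25, RpS20, RpS4, RpS5a, RpS21, RpS3A and RpS10b.

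Another 31 members had means from 1.04 to 1.90. The 22 of the large subunit were RpL31, RpL22, RpL11, RpL34a, RpL8, RpL30, RpL23, RpL13, RpL19, RpL17, RpL36, RpL37A, RpL27A, RpL4, RpL27, RpL35A, RpL18, RpL26, RpLP0-like, RpLP1, RpL37-1 and RpL10. The 9 of the small subunit included RpS12, RpS27A, RpS15Aa, RpS29, RpS18, RpS14b, RpS26 and RpS14a. The remaining 21 had means from 0.486 to 0.998, below a typical thresholded peak. These included RpL38, RpL9, RpL7A, RpL3, RpL35, RpL15, RpL12, RpL10Ab, RpL39, RpL29, RpL36A and RpL5 in the large subunit, and RpS19a, RpS7, RpS23, RpS6, RpS2, RpS15, RpS5b and RpS28a in the small. The 3 lowest were RpS15 (0.575, 0.737 and 0.513), RpS5b (0.263, 0.633 and 0.725) and RpS28a (0.334, 0.618 and 0.505). Of the 73 pairs of neighbours in this order, 0 had means further apart than the combined SD of the pair.

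**Figure D2:**
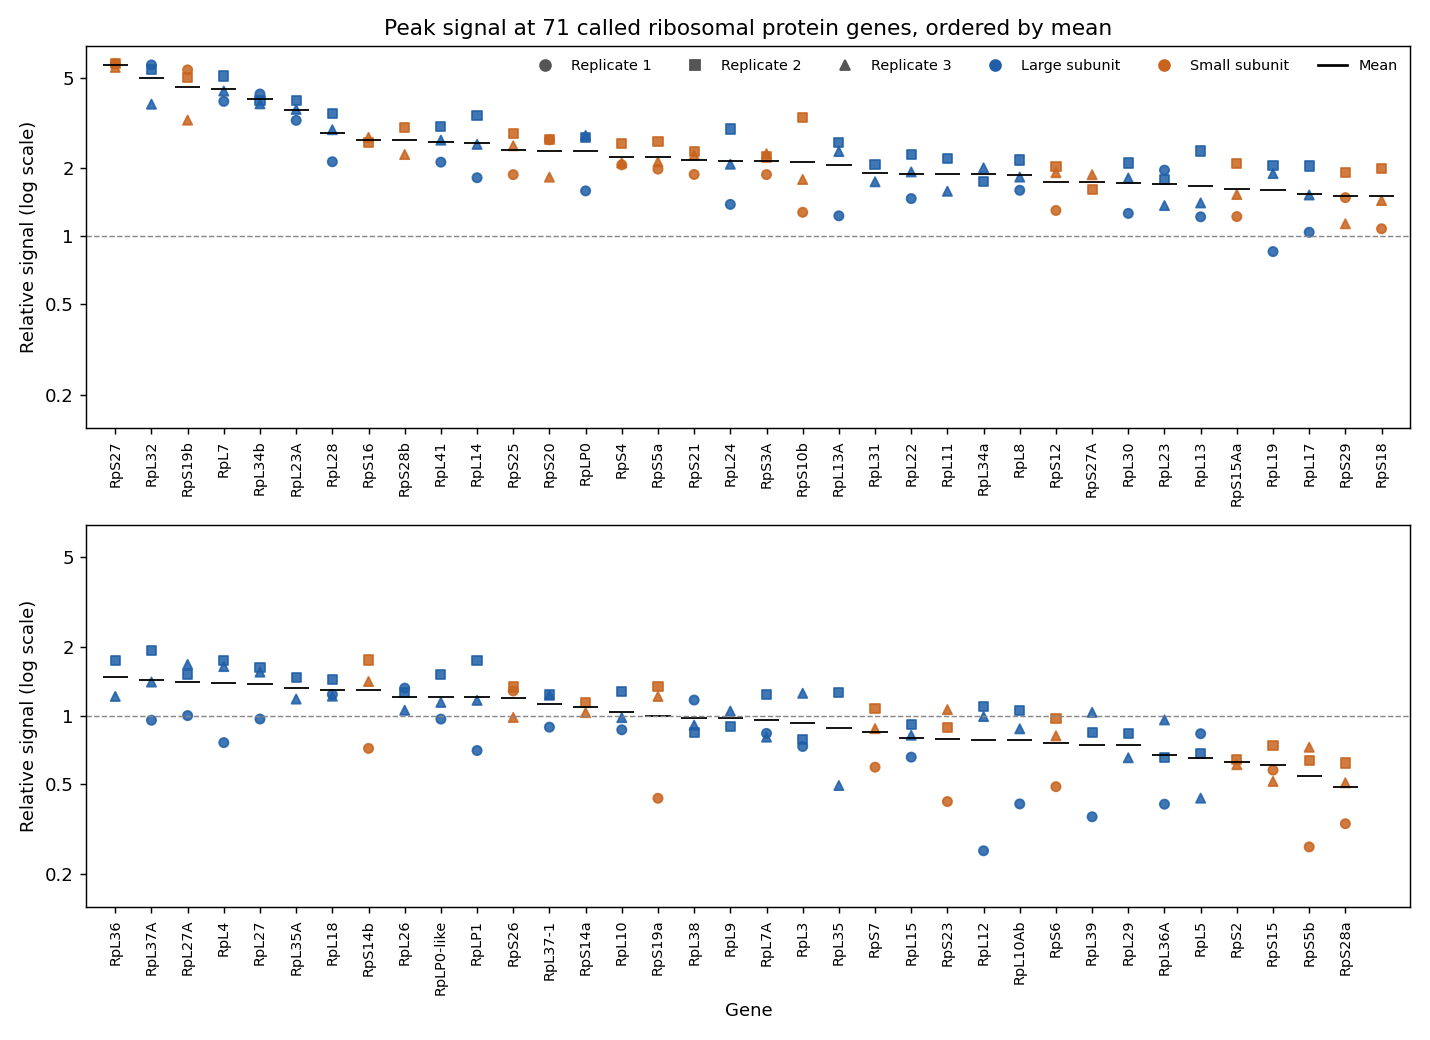
Relative signal (log scale, vertical axis) of 71 called members, ordered by their mean in 2 rows. Each point is 1 replicate, the short line is the mean over the replicates with a peak, and the dashed line at 1 is the median thresholded peak. RpS27 is the highest at 5.70, 21 of those drawn lie at 2 or more and 20 under 1, and replicate 1 is often the lowest point.

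Signals are given here for some members by the role of their product. These roles were chosen after values were seen, and whether such members differ more than others was not tested. Among the stalk proteins, which recruit elongation factors, RpLP0 had 1.58, 2.73 and 2.78, and RpLP1 had 0.701, 1.75 and 1.17. RpLP2 was not called, with its best peak at rank 7299 of the pooled list. Of the pair that joins 5S ribosomal RNA during assembly, RpL11 had 2.20 and 1.58 in replicates 2 and 3 and none in replicate 1, while RpL5 had 0.832, 0.679 and 0.432. RpL3, close to the peptidyl transferase centre, had 0.731, 0.784 and 1.25. RpS6, the target of S6 kinase, had 0.486, 0.974 and 0.815. Of the genes whose products are made as fusions to ubiquitin or a ubiquitin-like protein, RpS27A was called, with 1.60 and 1.87 in replicates 2 and 3 and no peak in replicate 1. RpL40 and RpS30 were not called.

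Several members with a promoter of their own lay near or above a typical peak. RpL24, which bridges the subunits, had a summit 17 bp upstream at rank 1144. RpS4 had signals of 2.06, 2.57 and 2.10 and RpS3A, on chromosome 4, had 1.87, 2.24 and 2.31. RpL22, whose fly protein carries a tail like that of histone H1, had 1.47, 2.28 and 1.92. RpL17, at the tunnel exit, had 1.04, 2.04 and 1.52, and RpL10, which joins the large subunit last, had 0.866, 1.28 and 0.980. RpL38 had 1.17, 0.845 and 0.908, with replicate 1 the highest, whereas replicate 1 was the lowest of the 3 in RpS4, RpS3A, RpL22, RpL17 and RpL10.

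Replicate 1 had gaps that the other replicates did not. It had no overlapping peak at 15 of the 74 called members (20.3%), close to the 704 of 3910 other called genes (18.0%), and replicates 2 and 3 lacked none of the members. Its 15 gaps included RpS2, RpS27A, RpL9, RpL31, RpL11, RpL29, RpS16, RpL35A, RpL34a, RpL36, RpL35, RpS14a and RpS28b. Among the 59 members with all 3 values, replicate 1 was the lowest in 45 (76.3%), against 39.6% of the 3210 called genes with all 3 values, and replicate 2 was the highest in 43.

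The members' signal relative to other called genes depended on the replicate. The median relative signal of the called members was 1.22, 1.76 and 1.43 in replicates 1 to 3, a mean of 1.47 ± 0.271 (SD, n = 3). In the 3910 other called genes it was 1.22, 1.17 and 1.17. The log2 ratio of these medians was -0.00, 0.58 and 0.28, so the members stood above other called genes in replicates 2 and 3 and level with them in replicate 1. The mean of 0.29 was no larger than its SD of 0.29 (n = 3).

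The summits lay close to the start. Over the 74 called members the median summit was 39.5 bp upstream of the nearest start, 43 bp in the large and 37 bp in the small subunit. In the 3910 other called genes the median was 138 bp upstream. Summits fell within the 100 bp upstream of the start in 57 members (77.0%) and in 868 of the other called genes (22.2%). The summits of 8 members lay at or downstream of the start, among them RpL7, RpL30, RpL12, RpL9, RpS18, RpS19a and RpS6, none by more than 38 bp. Another 9 lay over 100 bp upstream, and 4 of those, RpL23, RpS15 and RpS19b among them, over 200 bp.

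The offset was present in every replicate's own list. The strongest summit within 1 kb was at a median of 60, 25 and 37 bp upstream in the members in replicates 1 to 3, and at 138, 106 and 134 bp in other genes with a summit. Members lay closer to the start by 78, 81 and 97 bp, a mean of 85.3 ± 10.2 bp (SD, n = 3). The direction was the same in all 3 replicates, and the exact sign-flip p of 0.25 is the smallest that 3 replicates allow. Members have 1 start less often than other genes, 52.2% against 73.5% of all genes, and the distance is to the nearest start. Over genes with 1 start alone, the median was 49 bp in 35 members and 141 bp in 2246 others. The gap was smaller in the thresholded list when each summit was given only to the gene with the nearest start. The medians were then 36.5 bp in 68 members and 100 bp in 2885 other genes. The deposited peaks had a median width of 291.5 bp at members against 410 bp at other called genes. Many weaker peaks of members, those of RpL38, RpS6 and RpS28a among them, had this same width of 410 bp. Whether the difference in width follows peak strength was not tested.

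**Figure D3:**
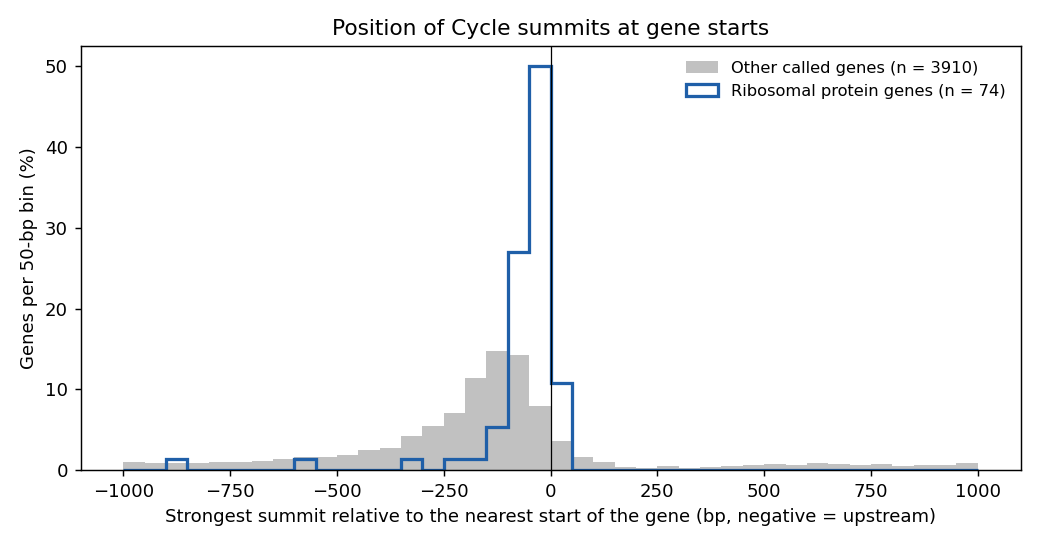
Position of the strongest thresholded summit relative to the nearest start (bp, horizontal axis, negative is upstream) as a percentage of genes per 50-bp bin. The line is the 74 called ribosomal protein genes and the filled area the 3910 other called genes. The members pile up in the bins just upstream of the start, with 77.0% within 100 bp upstream, while the other genes spread further upstream with a median of 138 bp.

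Many members share their promoter with a neighbour. A protein-coding start on the other strand lay within 1 kb upstream of 54 members (58.7%), against 34.7% of all genes. Of these 54 divergent members 49 were called (90.7%), and of the 38 others 25 (65.8%). Over all genes the same shares were 47.0% with a divergent neighbour and 18.8% without. Members exceeded all genes in both classes, but a peak in such a promoter cannot be assigned to one of its genes from position alone.

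Of the 74 called members, 50 shared their peak with another gene and 24 had it alone. The member's own start was the nearest in 67 of the 74. The exceptions included RpS19b, RpL23, RpL13, RpLP0-like, RpL29 and RpS15. RpL13 shared its peak with Dref, which encodes the factor that binds TATCGATA, and its summit was nearer to the Dref start. Other partners at these peaks were bys beside RpS6 and Mybbp1A beside RpL36, both genes of ribosome assembly or nucleolar proteins, and Nup154 beside RpL9.

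Introns of ribosomal protein genes often carry small nucleolar RNAs (snoRNAs), which guide modification of ribosomal RNA. The 92 members held 74 of the 269 annotated snoRNA genes, in 28 members (30.4%), while 0.602% of all protein-coding genes held any. Of the 28 host members 26 were called, and RpS9 was among those that were not. Of the 56 other host genes 30 were called (53.6%). RpS5a held 14 snoRNA genes and RpS7 held 7.

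Sequence motifs were searched on both strands in the 300 bases from 250 before to 50 from the most used start, in members and in all genes. TATCGATA, the DNA replication-related element bound by Dref, was in 28 members (30.4%) and in 9.23% of all genes. GGTCACAC, known as the site of M1BP (Motif 1), was in 14.1% of members and 7.79% of all genes. TATAAA was in 45.7% and 45.5%, GAGAGA, the repeat bound by GAGA factor, in 4.35% and 12.7%, GTGCAC in 4.35% and 5.61%, and GGCGCC in 4.35% and 4.53%. The TCT motif, CTTTT or CTTTC on the gene's strand with its C within 5 bp of the start, was in 44 members (47.8%) and 3.54% of all genes. The C lay at the annotated start itself in 0 of the 44, and its median position was 4 bp downstream.

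The presence of a TCT match did not separate called members clearly from the rest. With it 37 of 44 members were called (84.1%), and without it 37 of 48 (77.1%). Among other genes with the TCT motif, 124 of 450 were called (27.6%), near the 28.6% of all genes, and their summits lay at a median of 158 bp upstream. TATCGATA also failed to mark the called members. With it 21 of 28 were called (75%) and without it 53 of 64 (82.8%), while over all genes the order was the opposite, 42.5% with it and 27.2% without.

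The E-box CACGTG, to which Clock and Cycle are known to bind, was in the promoters of 10 members (10.9%) and 4.2% of all genes. All 10 were large subunit genes, 18.5% of the 54, and none of the 38 small subunit genes held it. The called members with an E-box were RpL32, RpL7, RpL34b, RpL24, RpL11, RpL29 and RpLP0-like, and those not called were RpL6, RpL24-like and RpL7-like. With an E-box 7 of 10 members were thus called (70%), and without it 67 of 82 (81.7%). Over all genes the shares called were 29.9% with it and 28.5% without. In 7 of the 10 the E-box lay 16 to 36 bp downstream of the start, as in the RpL7 sequence printed above.

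RpL32, RpL7 and RpL34b were 3 of the 5 members with the highest mean signal. Those with an E-box had median relative signals of 3.93, 2.97 and 2.08 in replicates 1 to 3, and those without had 1.19, 1.75 and 1.41. These medians rest on few genes, since RpL11 and RpL29 had no peak in replicate 1. The E-box lay 17 bp from the summit in RpL7, 22 bp in RpL24, 35 bp in RpL29 and 36 bp in RpL11, but 93 bp in RpLP0-like, 116 bp in RpL34b and 173 bp in RpL32. In the 100 bp on either side of the summit, 7 called members (9.46%) held CACGTG, against 2.05% of all thresholded peaks at promoters. The E-boxes given above for RpL34b and RpL32 lie outside this stretch, so these need not be the same 7 genes. TATCGATA was in 25.7% of these windows against 6.41%, and GGTCACAC in 12.2% against 3.52%. GAGAGA was in 1.35% against 7.97%, so the windows differed from other promoter peaks in both directions.

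Genes with related symbols were paired as paralogues, which gave 14 pairs, RpS28b being in 2 of them. Each gene of a pair is termed a copy, but whether the "-like" genes encode the same ribosomal protein as their partners was not examined. In 8 of the 14 pairs exactly 1 copy was called. In all 8 the called copy was RpL7, RpL10Ab, RpL22, RpL24, RpL37-1, RpS10b, RpS15Aa or RpS28b, and the other was RpL7-like, RpL10Aa, RpL22-like, RpL24-like, RpL37-2, RpS10a, RpS15Ab or RpS28-like. RpL24 had relative signals of 1.38, 2.97 and 2.08, RpS10b 1.27, 3.34 and 1.78, and RpL22 1.47, 2.28 and 1.92. RpL22-like and RpS10a are known for expression in the testis of flies.

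The 6 pairs with both copies called had unequal signals. RpS5a exceeded RpS5b, a copy known from the female germ line, by log2 ratios of 2.91, 2.05 and 1.55, a mean of 2.17 ± 0.69 (SD, n = 3). RpS19a was below RpS19b, with log2 ratios of -3.65, -1.90 and -1.42, though the RpS19b summit lay nearer to CG5854. RpLP0 exceeded RpLP0-like by 0.71, 0.85 and 1.28. Each of these 3 pairs had the same copy higher in all 3 replicates, and 3 replicates allow no p under 0.25. For the other 3 pairs replicate 1 gave no value. RpL34b exceeded RpL34a by 1.19 and 0.94, RpS28b exceeded RpS28a by 2.28 and 2.18, and RpS14b exceeded RpS14a by 0.62 and 0.46. RpS14a and RpS14b are adjacent near-identical copies on X, so reads may not have been told apart.

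**Figure D4:**
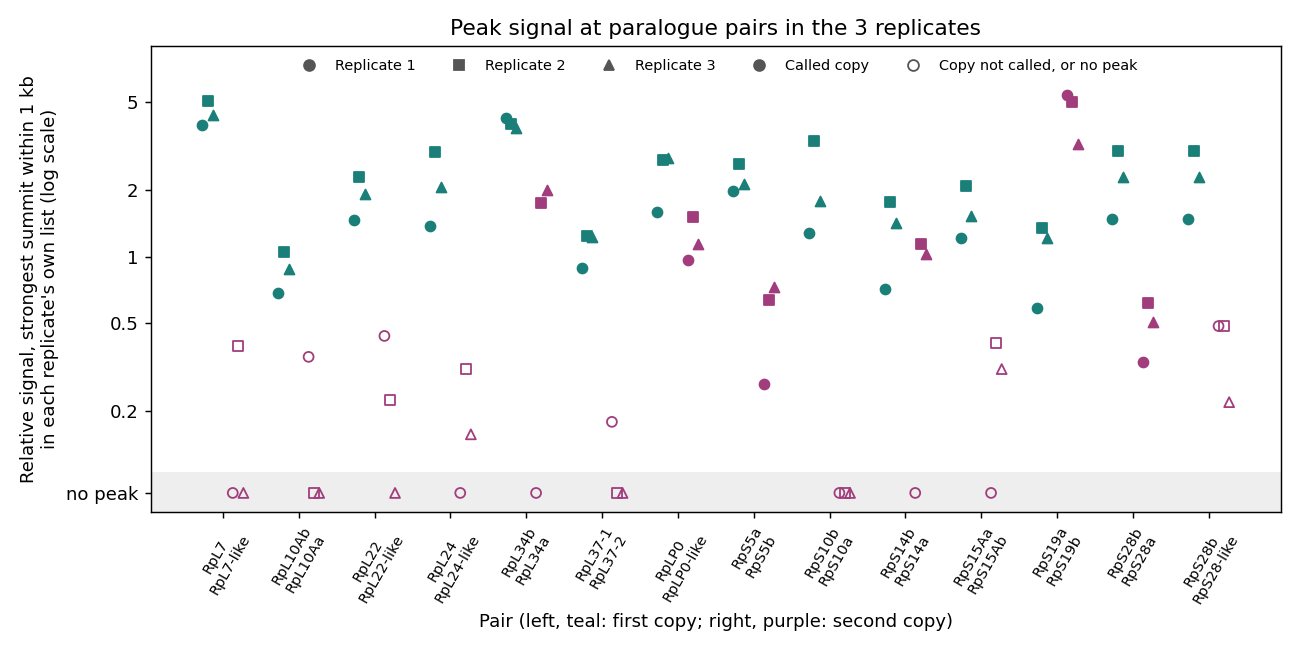
Relative signal (log scale, vertical axis) of the strongest summit within 1 kb in each replicate's own list, for the copies of the 14 pairs side by side. Filled points are called copies, and open points are copies that were not called or, at the bottom, had no peak. In 8 pairs only 1 copy was called. In the 6 with both called, the higher copies are RpS19b, RpL34b, RpLP0, RpS5a, RpS14b and RpS28b, in each replicate with a peak at both. The order of copies within a pair was set after values were seen, so which is drawn first carries no result.

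The 18 members that were not called fell into 2 kinds. A summit of the pooled list lay within 1 kb of a start in 13, at pooled ranks from 7299 to 20206, and 5 had none. RpLP2 was the closest, at rank 7299 where the thresholded list ends at 7227 peaks, while RpS28a, at rank 7165, was the weakest member called. RpLP2 had relative signals of 0.397, 0.718 and 0.423 in the replicates' own lists, close to the 0.334, 0.618 and 0.505 of RpS28a. The threshold thus parts members whose values overlap.

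Further ones were RpS9 at rank 8100, RpS3 at 8504, RpL40 at 8519, RpS13 at 9351, RpS28-like at 9566, RpL6 at 9753, RpL21 at 10057, RpS15Ab at 10468, RpS24 at 10593, RpS30 at 12286 and RpL22-like at 20206. RpS3, which lines the entry of the mRNA channel, had no peak in replicate 1 and 0.708 and 0.527 in the others. RpL10Aa, RpL24-like, RpL37-2, RpL7-like and RpS10a had no pooled summit within 1 kb. The nearest thresholded summit was 4151 bp away at RpL24-like and 50431 bp at RpL10Aa.

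With every gene within 1 kb of a summit counted, other genes of translation were called at shares between those of the members and all genes. Of 12 genes for elongation factors and proteins that act on the ribosome 9 were called (75%). Their summits lay at a median of 22 bp upstream, 7 of them within 100 bp upstream. With each summit given only to the nearest gene, 9 of the 12 were again called, where the members' share was 73.9%. This group includes sta and Rack1. eEF1gamma had 2.01, 4.38 and 3.22, and eEF1alpha1 had 2.40, 1.72 and 1.68. Of 18 genes for ribosome assembly and RNA polymerase I 11 were called (61.1%), at a median of 133 bp upstream, but 4 when a summit was given only to the nearest gene. In that group eIF6, which keeps the subunits apart until the large one is mature, had 17.6, 11.7 and 9.09, above every member.

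The mitochondrial ribosomal protein genes, whose products act in another compartment, had 37 of 73 called (50.7%). Their summits lay at a median of 137 bp upstream, close to the 138 bp of all other called genes. With each summit given to the nearest gene alone, 15 of 73 (20.5%) were called, below the 21.2% of all genes, whereas 68 of the 92 cytosolic members were. The highest mitochondrial genes were above every cytosolic one, with mRpS10 at 19.8, 13.6 and 13.8 and mRpS23 at 19.3, 16.1 and 13. Their median over called genes was 1.05, 0.872 and 1.09, below the members' median in all 3 replicates.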

How the data were processed

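Chromatin from 3 replicates of whole cyc-GFP white prepupae was precipitated with an antibody to GFP, per the labels. The authors deposited narrowPeak lists on dm6, made from alignments with 1 shared control, per the deposited texts. Aligner and peak caller: not given in the sources used here. Peak signal and the offset of the summit (other) are the authors' deposited values. The authors' score, p and q columns and the dm3 lists were not used.

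Summits were assigned to protein-coding transcript starts of Ensembl release 115 (build 6.54, 19607 starts). A replicate's value at a thresholded peak was the signal of its peak overlapping by at least 1 bp, with the nearest summit, divided by that replicate's median over such peaks. With several summits within 1 kb, the strongest was used. Divergent neighbours were looked for within 1 kb. Motifs were read from the RefSeq Release 6 genome. Sign-flip tests over replicates were exact and two-sided, with a threshold of 0.05. Nothing says that replicates were separate crosses, so p-values measure the spread between these samples. Python 3.11.15, pandas 2.3.3, numpy 2.4.6, scipy 1.17.1 and matplotlib 3.10.9 were used, and the assignment was tested on simulated data.

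Named members were the 12 highest and 3 lowest by mean signal, those at the edge of the thresholded list, paralogues, members with an E-box and members not called. The members, lists and pairs were chosen with earlier results of these data known. Some members that meet this rule are counted but not reported here by name. The order of copies within pairs, the printed promoters and the roles described were chosen after values were seen.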

Additional observations from a re-analysis of the deposited data

How the results depend on the processing

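Depth is unknown in these lists, so a member without a peak cannot be told from one in a shallow library. The number of members called stayed above the share of all genes under every window and list tried, with 25 called among members without a divergent start and 84 (91.3%) with summits within 5 kb, where 50.8% of all genes were called. Without replicates 1, 2 and 3, peaks strong in both remaining lists gave 71, 50 and 53 members (77.2%, 54.3% and 57.6%) against 24.2%, 19.9% and 20.01% of all genes. The large subunit's lead of 7.02 percentage points became 12.3 with 500 bp and 13.7 with the 3613 strongest peaks, ran from 10.4 to 13 with a replicate left out, and reversed to -4.78 in the pooled list. Pairs with exactly 1 copy called, 8 as reported, numbered 4 with 5 kb, 5 in the pooled list, 9 with 500 bp, 10 with the nearest gene only, 11 with the 3613 strongest peaks, and 9, 12 and 12 without replicates 1, 2 and 3. The members' median relative signal was 5.54 when scaled to the whole replicate list. The log2 ratio of large to small subunit signal was -0.15 with the peak nearest to a start and reversed to 0.093 with missing peaks set to the lowest signal of the list. The cause of these changes was not tested. Around the summit TATAAA was in 23.0% of windows against 35.7% at all promoter peaks, and the TCT motif was in 73.9% of members within 20 bp of the start against 13.2% of all genes, a distance added after seeing the data. No paired analysis was possible because all replicates belong to 1 group.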
